A study of Homo sapiens with 21 samples.

Results

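The genes described here are 10 genes for SR proteins and SR-like splicing factors, *SRSF1*, *SRSF2*, *SRSF3*, *SRSF4*, *SRSF5*, *SRSF6*, *SRSF7*, *SRSF11*, *TRA2A* and *TRA2B*, as targets of the RNA-binding protein HNRNPK. They were taken by name, and every HNRNPK cluster that carried one of these gene names was used. A cluster is a group of overlapping sequence reads with the T-to-C changes that mark a crosslink. This gave 515 of 778762 clusters and 10 of 18322 genes over 4 libraries. HNRNPK was immunoprecipitated with an antibody labelled anti-HNRNPK/J from MDA-MB-231 cells, a triple-negative breast cancer cell line, after photoactivatable crosslinking (PAR-CLIP). The 4 libraries were the cytoplasm of parental cells, the cytoplasm of *KRT19* knockout (KO) cells, the nucleus of parental cells and the nucleus of *KRT19* KO cells. Cells of both genotypes had been given the uridine analogue 4-thiouridine. The *KRT19* KO cells lack keratin 19 through CRISPR/Cas9 editing, and the sources used here do not say whether they are a single clone. The comparisons ask where HNRNPK sat on the SR genes in each compartment, and how this differed without keratin 19.

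SR proteins bind exonic enhancers through RNA recognition motifs and recruit the splicing machinery through domains rich in arginine and serine. Many of their genes are known to control themselves: they can splice in a poison exon or keep an intron, which sends the transcript to nonsense-mediated decay. HNRNPK is a shuttling protein with KH domains that prefers RNA rich in cytosine, and it acts on splicing in the nucleus and on mRNA stability and translation in the cytoplasm.

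Overlapping clusters of the 4 libraries, with 1 or more nt in common on a strand, were joined into sites, which gave 321 sites on the 10 genes. The strongest site of each gene is shown first, because these sequences carry much of the signal described here, with the second site of *SRSF2*, which held the most reads of any site in *KRT19* KO cytoplasm. Each is a window of at most 30 nt around the read peak, written 5′ to 3′ on the RNA strand with T for U. Capitals mark CCC and TTCC, searched on that strand only, and the matches may overlap. Positions are in GRCh37 (hg19), and each window occurred 1 time in that genome.
*SRSF1*, 3'UTR, chr17:56081770-56081799, minus strand: tacttttaagtctcaccTTCCCCtttaaac
*SRSF4*, intron 1, chr1:29494961-29494990, minus strand: ctttaCCCCattatatcaaaaacctttact
*SRSF5*, intron 5, chr14:70236968-70236997, plus strand: cttttagcattttgcttaaaagcaatatgc
*SRSF6*, 3'UTR, chr20:42091855-42091884, plus strand: aatttattaacagtcagggcctatccttgc
*SRSF2*, 3'UTR, chr17:74730372-74730401, minus strand: tttTTCCCtcTTCCCCCtaaaaatggtaaa
*SRSF2*, second site, 3'UTR, chr17:74730810-74730839, minus strand: ttgccttcaTTCCttaaaattaaaaaccta
*SRSF3*, 3'UTR, chr6:36571339-36571368, plus strand: ctaaacaaattatttatTTCCaccttttac
*SRSF7*, 3'UTR, chr2:38971940-38971969, minus strand: tgttaaccttattcatacatacctacattc
*SRSF11*, 3'UTR, chr1:70717740-70717769, plus strand: catttacctcattcattttacaaattcttt
*TRA2A*, 3'UTR, chr7:23544994-23545023, minus strand: ttTTCCaCCCattttattatactcttaaaa
*TRA2B*, intron 1, chr3:185650799-185650828, minus strand: actCCCttaaataaaaacatatttaaaaat

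The strongest sites of *SRSF1*, *SRSF2* and *TRA2A* held both words, those of *SRSF4* and *TRA2B* held CCC alone, that of *SRSF3* held TTCC alone, and those of *SRSF5*, *SRSF6*, *SRSF7* and *SRSF11* held neither within the window. Over whole clusters, CCC occurred in 36.7% of the 515 clusters of the SR genes and in 42.9% of all 778762 clusters. UUCC occurred in 34.8% and 32.3%. Weighted by reads the order for UUCC was wider apart, with 80.7% of the reads of the SR genes and 39.9% of all reads in clusters with UUCC. Most of this weight came from *SRSF1* and *SRSF2*, with 94.1% and 86.7% of their reads in such clusters, against 6.12% for *SRSF5*. In the 3'UTRs of the 10 genes, 33 of 92 UUCC words (35.9%) and 34 of 150 CCC words (22.7%) lay within a site, while sites covered 15.1% of the 21287 nt. A word is a description of the sequence and was not tested as a cause of a cluster.

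Library depth was 5551612 and 6216226 cluster reads in parental and *KRT19* KO cytoplasm and 3537577 and 3252800 in parental and *KRT19* KO nucleus. The lowest cluster held 5 reads in every library. Unique reads made up 30.9% and 45.6% of the reads of parental and *KRT19* KO cytoplasm, and 20.0% and 19.0% in the nuclei. Each condition had 1 library, so no difference has a replicate check and no p-value was computed. Intervals below are 95% intervals and cover counting error only, with each read taken as independent. The study's methods describe removal of possible PCR duplicates with unique molecular identifiers. Where copies of a molecule remain, the intervals are too narrow. Reads on *KRT19* itself numbered 7 and 5 in the cytoplasmic libraries with no cluster listed in the nuclear ones, too few to check the genotype. *MALAT1*, a nuclear RNA, was at 1229, 842, 888 and 548 reads per 1000000 cluster reads (RPM) in the order above, so it was not lower in the cytoplasm. More bound RNA and more RNA available for binding cannot be told apart in these libraries, since the RNA-seq libraries were not analysed here.

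As a sum, the SR genes held more HNRNPK reads in the cytoplasm than in the nucleus, and *SRSF1* and *SRSF2* made up most of the cytoplasmic signal. Together the 10 genes reached 4082 RPM in parental cytoplasm and 6263 RPM in *KRT19* KO cytoplasm, against 1296 and 1383 RPM in the nuclei. *SRSF1*, the founding SR protein with a pair of RNA recognition motifs, was at 1705 RPM (1671 to 1740) and 2013 RPM (1978 to 2049) in parental and *KRT19* KO cytoplasm and at 161 and 111 RPM in the nuclei. *SRSF2*, a single-motif SR protein also called SC35, was at 1799 RPM (1764 to 1834) and 3487 RPM (3440 to 3533) in the cytoplasm and at 290.03 and 225.7 RPM in the nuclei. By reads, without regard to length, *SRSF2* ranked 18 and 8 among the genes of the cytoplasmic libraries and 537 and 700 in the nuclear ones, and *SRSF1* ranked 21 and 20, then 1274 and 1857. The pair held 85.8% and 87.8% of the SR gene reads in parental and *KRT19* KO cytoplasm but 34.8% and 24.4% in the nuclei.

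**Figure D1:**
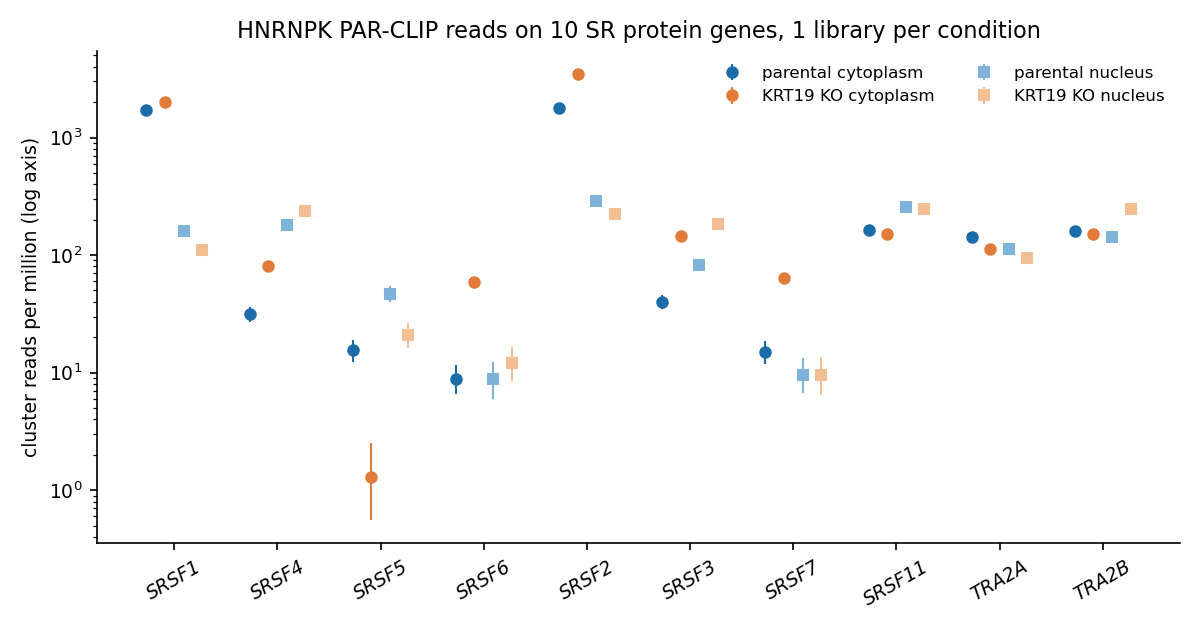
HNRNPK PAR-CLIP reads per 1000000 cluster reads (RPM, log axis) for each of the 10 SR protein genes in the 4 libraries, 1 library per condition. Circles are cytoplasm and squares nucleus, and bars are exact Poisson 95% intervals. *SRSF1* and *SRSF2* lie between 1705 and 3487 RPM in the cytoplasmic libraries, far above their nuclear values, and *SRSF5* falls to 1.29 RPM in *KRT19* KO cytoplasm.

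Among the other 8 genes, *SRSF3*, *SRSF4*, *SRSF5* and *SRSF11* were higher in the nucleus of each genotype, while *SRSF6* and *SRSF7* stood highest in *KRT19* KO cytoplasm. *SRSF4*, which has a pair of recognition motifs and a long arginine-serine domain, was at 31.3 and 80.4 RPM in parental and *KRT19* KO cytoplasm and at 182 and 235 RPM in the nuclei, higher in both nuclei than in either cytoplasm. *SRSF11*, an SR-related protein, was at 164 and 152 RPM in the cytoplasm and 258 and 245 RPM in the nuclei, again with both nuclei higher. *SRSF3*, the smallest SR protein, was at 39.8, 145, 82.8 and 184 RPM, so that within each genotype the nucleus was higher. *TRA2A* and *TRA2B*, SR-like proteins that bind GAA-rich enhancers, were at 142, 112, 114 and 95.3 RPM and at 161, 151, 143 and 245 RPM. The values of *TRA2A* lay close together, and for *TRA2B* the nucleus of *KRT19* KO cells stood above the other libraries. Few reads fell on *SRSF5* (15.5, 1.29, 46.6 and 20.9 RPM), *SRSF6* (8.83, 59.0, 8.76 and 12.0 RPM) and *SRSF7* (15.0, 63.9, 9.61 and 9.53 RPM), an SR protein with a zinc knuckle.

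Between compartments, 2 SR genes were at least 2-fold higher in the cytoplasm of parental cells and 3 were at least 2-fold lower, where 18.8% and 34.8% of the 9590 genes with at least 50 reads were so called. In *KRT19* KO cells 4 were higher and 2 lower, where the shares over all genes were 24.4% and 41.2%. *SRSF1* was 10.6-fold higher in parental cytoplasm than in the nucleus (9.71 to 11.5) and 18.1-fold higher in *KRT19* KO cells (16.3 to 20.1). *SRSF2* was 6.20-fold (5.82 to 6.62) and 15.4-fold (14.4 to 16.7) higher. Nearly all reads of this pair lay in the 3'UTR. For 3'UTR reads in RPM, the log2 ratios in parental and *KRT19* KO cells were 3.42 and 4.17 for *SRSF1* and 2.63 and 3.95 for *SRSF2*. The median gene had 2.93 and 3.46 for such reads. *SRSF6* and *SRSF7* passed 2-fold in *KRT19* KO cells only, at 4.92-fold (3.53 to 7.04) and 6.70-fold (4.65 to 10.0) against 1.01 and 1.56 in parental cells, a difference between genotypes that was not tested. With 3'UTR reads taken over all 3'UTR reads of a library, these *KRT19* KO values came to log2 ratios of −0.38 and 0.19, against 2.30 and 2.74 over all reads. *SRSF4* was 5.81-fold and 2.92-fold lower in the cytoplasm, *SRSF5* 3.01-fold and 16.2-fold lower, and *SRSF3* 2.08-fold and 1.27-fold lower. Without *SRSF1* and *SRSF2*, the other 8 genes together were 1.46-fold lower (1.39 to 1.53) in parental cytoplasm and 1.37-fold lower (1.31 to 1.43) in *KRT19* KO cytoplasm. The median gene of each library pair had a log2 ratio of −0.54 in parental and −0.62 in *KRT19* KO cells. When 3'UTR reads alone were compared over all 3'UTR reads of a library, the log2 ratio of the 10 genes fell from 1.66 to 0.20 in parental cells and from 2.18 to 0.41 in *KRT19* KO cells.

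Within a class of RNA, most SR genes had more 3'UTR reads in the cytoplasm, as most genes did. Of 8 SR genes with at least 50 3'UTR reads in parental cells, 6 were at least 2-fold higher in cytoplasm and 0 lower, against 79% and 5.94% of 3584 genes. In *KRT19* KO cells 8 of 9 were higher and 0 lower, against 84.1% and 3.73% of 4232 genes. The exception in both was *SRSF3*, whose 3'UTR reads had a cytoplasm to nucleus ratio of 0.63 and 1.02, and in parental cells also *SRSF6*, at 1.03. The SR genes had a median log2 ratio of 2.42 and 3.31 for 3'UTR reads, where all genes had 2.93 and 3.46, and 1 of the 8 and 3 of the 9 lay above that median of all genes. Of the 5 SR genes with enough intron reads, *SRSF3*, *SRSF4*, *SRSF11*, *TRA2A* and *TRA2B*, 0 were higher and 3 lower in parental cytoplasm, against 4.8% and 51% of 7331 genes, and 0 were higher and 5 lower in *KRT19* KO cytoplasm, against 3.28% and 74.7% of 6711 genes. *TRA2A* and *TRA2B* made the difference between these counts, with intron ratios of 0.86 and 0.98 in parental and 0.49 and 0.27 in *KRT19* KO cells.

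The class of RNA bound set *SRSF1* and *SRSF2* apart. By the deposited annotation class of each cluster, 99.9%, 99.9%, 98.8% and 100% of the *SRSF1* reads lay in the 3'UTR in parental cytoplasm, *KRT19* KO cytoplasm, parental nucleus and *KRT19* KO nucleus, and for *SRSF2* the share was 99.9% in *KRT19* KO cytoplasm and 100% in the other libraries. In both genes the 3'UTR by this class held the reads in the nucleus as well. On the reference transcript of *SRSF2* (MANE Select), 210, 1548, 203 and 91 of its reads in the 4 libraries lay in an intron. *SRSF3* (89.6%, 94.9%, 68.6% and 73.3%) and *SRSF6* (85.7%, 97.8%, 83.9% and 71.8%) were also mainly 3'UTR targets by this class in every library. Placed on its reference transcript (MANE Select), *SRSF3* had fewer 3'UTR than intron reads in *KRT19* KO nucleus, 258 against 341. *SRSF4* was mainly intronic by share of reads, with 90.2%, 85.0%, 100% and 97.8% in introns. Its introns span 31858 nt and its 3'UTR 670 nt. Per kb, its 3'UTR was at 4.57, 18.0, 0 and 7.80 RPM in the 4 libraries and its introns at 0.89, 2.15, 5.71 and 7.22 RPM. The 3'UTR was thus the denser in both cytoplasmic libraries. For *TRA2B* the intron held 85.2% of the reads in parental cytoplasm (82.8 to 87.4), 42.5% in *KRT19* KO cytoplasm (39.4 to 45.7), and 97.8% and 97.2% in the nuclei. *TRA2A* also had its lowest intron share in *KRT19* KO cytoplasm, with 60.1%, 38.6%, 88.1% and 92.9% in the 4 libraries. *SRSF11* did not, with 43.5%, 56.6%, 74.5% and 88.6% in introns.

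**Figure D2:**
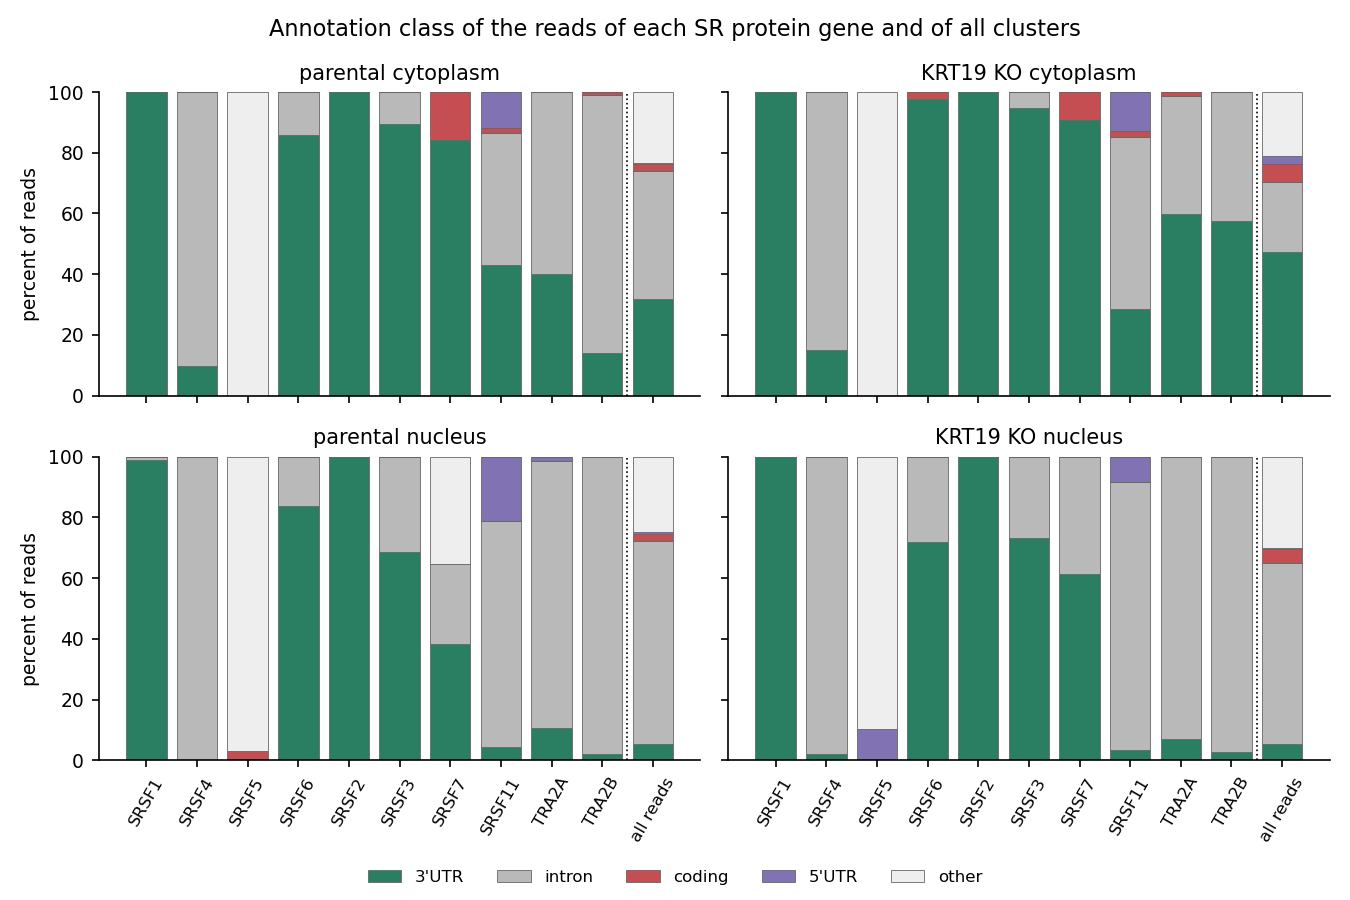
Percent of HNRNPK cluster reads by the authors' annotation class for each SR protein gene, with all reads of the library at the right of each panel, in the 4 libraries. *SRSF1* and *SRSF2* are almost wholly 3'UTR in each panel, *SRSF4* is almost wholly intronic, and the 3'UTR part of *TRA2A* and *TRA2B* is larger in the cytoplasm than in the nucleus. Other holds the remaining annotation classes, such as the processed transcript class of *SRSF5*.

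Taken over the 10 genes, the 3'UTR held 90.9%, 95.1%, 42.0% and 37.1% of the reads, against 31.6%, 47.4%, 5.35% and 5.43% of all reads in the same libraries. Counted by clusters rather than reads, the shares were 38.6%, 46.2%, 22.7% and 18.8% for the SR genes and 10.7%, 16.0%, 3.86% and 4.05% for all clusters. Without *SRSF1* and *SRSF2*, 36.2%, 60.5%, 11.2% and 16.8% of the reads of the other 8 genes were in the 3'UTR. Introns held 42.3% of all reads of parental cytoplasm and 23.0% of those of *KRT19* KO cytoplasm.

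Levels between genes were compared per length of the 3'UTR, on the MANE Select transcript, the reference transcript of each gene. *SRSF2*, with a 3'UTR of 1054 nt, was highest in each library, with 1671, 3068, 221 and 188 RPM per kb. *SRSF1*, with 4490 nt, followed with 379, 448, 35.5 and 24.8 RPM per kb. *TRA2A* came next in both cytoplasmic libraries with 72.8 and 85.6 RPM per kb, and *SRSF6* was lowest in parental cytoplasm with 2.38 RPM per kb (1.71 to 3.21). *SRSF4* (4.57, 2.66 to 7.32) and *SRSF5* (4.28, 2.28 to 7.32) had intervals that overlapped it and each other. Sites covered 38.2% of the *SRSF2* 3'UTR and 5.73% of that of *TRA2B*.

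Single sites made up the bulk of the *SRSF1* and *SRSF2* signal. The strongest *SRSF1* site, 1002 nt after the end of the coding sequence, held 6906, 7133, 433 and 256 reads in the 4 libraries and 64.3% of all *SRSF1* reads. It was high in both cytoplasmic libraries and, as a share of the library, nearly equal between them, with a ratio of *KRT19* KO to parental of 0.92 (0.89 to 0.95). The strongest *SRSF2* site, 865 nt after the coding sequence, held 5210, 8293, 621 and 446 reads, and the second, at 435 nt, held 3119, 9908, 191 and 197 reads. These *SRSF2* sites held 83.7% of the reads of the gene. Both stood higher in *KRT19* KO cytoplasm, by 1.42-fold (1.37 to 1.47) at 865 nt and by 2.84-fold (2.72 to 2.95) at 435 nt, so the order of the 2 sites was exchanged. Another *SRSF2* site, at 575 nt, held 1414 and 1779 reads in the cytoplasm, and no cluster was listed there in either nucleus.

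**Figure D3:**
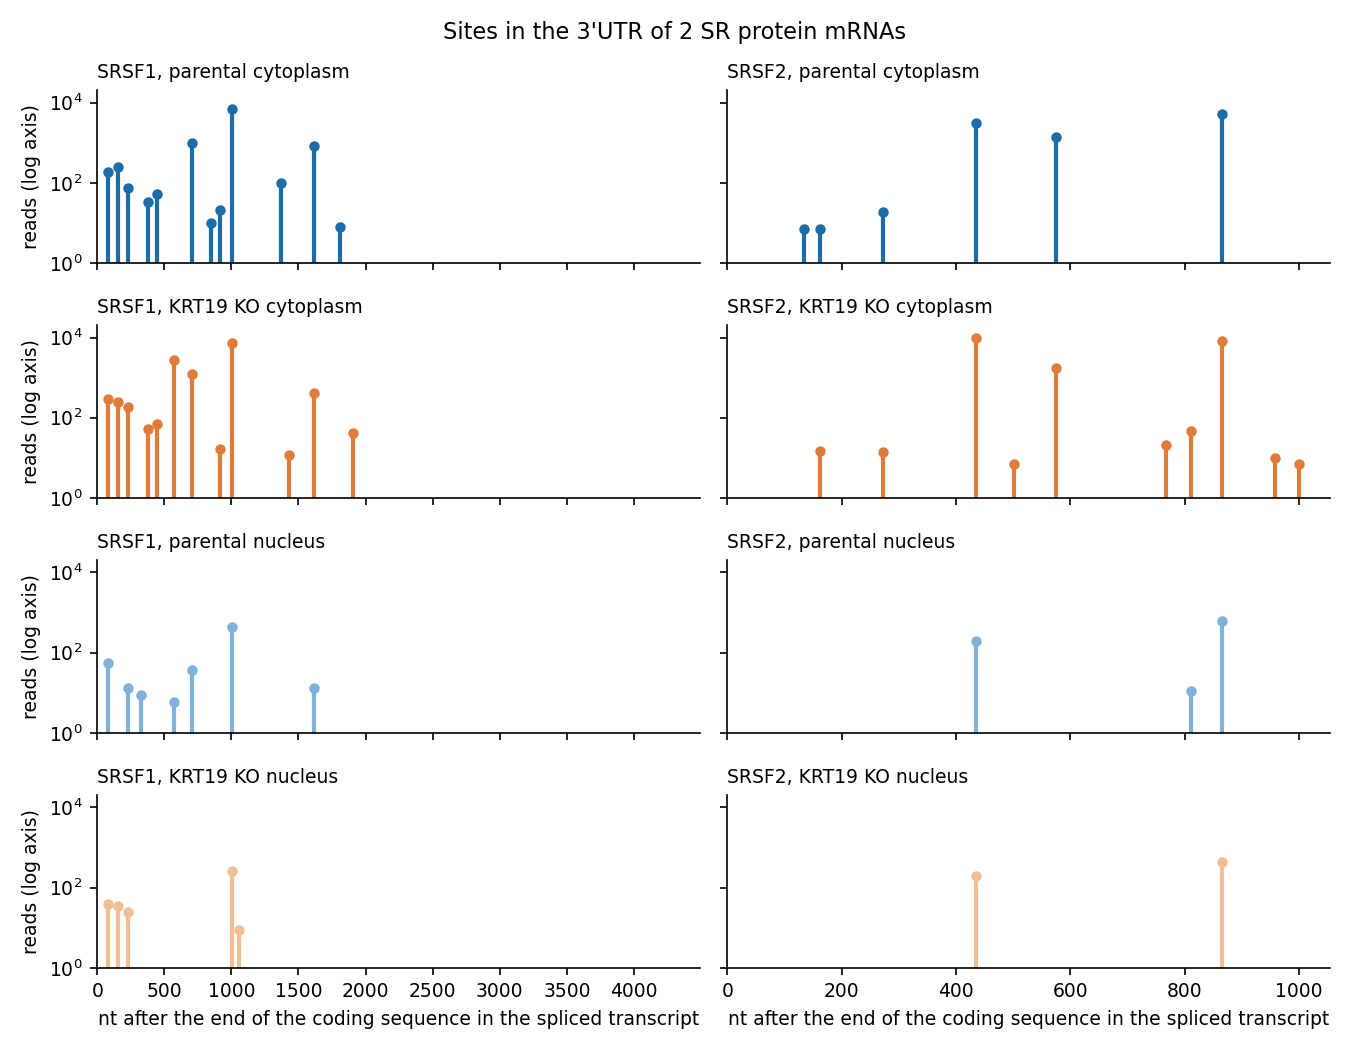
Reads (log axis) at each HNRNPK site in the 3'UTR of *SRSF1* (left) and *SRSF2* (right) against the distance in nt from the end of the coding sequence in the spliced transcript, in the 4 libraries from top to bottom. Both cytoplasmic libraries share the tall sites at 1002 nt of *SRSF1* and at 435 and 865 nt of *SRSF2*, and no *SRSF1* site lies beyond 1904 nt of its 4490-nt 3'UTR.

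The 3'UTR of *SRSF1* held 17 sites, one of which, at 572 nt, was listed in *KRT19* KO but not in parental cytoplasm. It held 2797 reads, of which 1366 were unique, in *KRT19* KO cytoplasm and 6 in parental nucleus, and no cluster was listed in *KRT19* KO nucleus. The site at 1618 nt went the other way, with 808 reads in parental and 406 in *KRT19* KO cytoplasm, a ratio of 0.45 (0.40 to 0.51). At 703 nt the values were 1005 and 1237 reads, a ratio of 1.10 (1.01 to 1.20). Neighbouring sites of this 3'UTR thus stood higher, lower and nearly level between the cytoplasmic libraries. Within *SRSF2*, 7 sites lay in intron 2 of the MANE transcript, a stretch that other transcripts of the gene keep as 3'UTR exon and that the authors classed as 3'UTR. At one of them, chr17:74731450-74731487, all 4 libraries had a cluster, with 200, 455, 197 and 91 reads. At another, chr17:74731814-74731849, 931 reads were in *KRT19* KO cytoplasm, and no cluster was listed in the other libraries.

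The strongest sites of the other genes were held less evenly by the libraries. That of *SRSF3*, 1595 nt after the coding sequence, held 517, 145 and 239 reads in *KRT19* KO cytoplasm, parental nucleus and *KRT19* KO nucleus, and no cluster was listed in parental cytoplasm. That of *SRSF6*, at 2176 nt, held 177 reads in *KRT19* KO cytoplasm and was listed in no other library. That of *SRSF7*, at 325 nt, held 55, 223 and 19 reads in parental cytoplasm, *KRT19* KO cytoplasm and *KRT19* KO nucleus. So each was strongest in *KRT19* KO cytoplasm. The *TRA2A* site at 176 nt held 311, 405, 43 and 22 reads, the *SRSF11* site at 1281 nt held 306, 188 and 34 reads with no cluster listed in *KRT19* KO nucleus, and the *TRA2B* site in intron 1 held 297, 116, 213 and 115 reads. The *SRSF4* site in intron 1 held 98, 83 and 97 reads and was not listed in parental cytoplasm.

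In cytoplasm, the *KRT19* KO library held more reads than the parental library on most SR genes. The size and, for *SRSF1* and *TRA2B*, the direction followed the scale used. Over all cluster reads, the 10 genes were 1.53-fold higher (1.51 to 1.56), a log2 ratio of 0.62 that came to 0.10 when 3'UTR reads were taken over all 3'UTR reads. Of the 10 genes, 4 were at least 2-fold higher and 1 was at least 2-fold lower, where 20.6% and 22.4% of the 9378 genes with enough reads were so called. The 4 were *SRSF6* with 8.83 and 59.0 RPM in parental and *KRT19* KO cytoplasm (6.69-fold, 4.95 to 9.21), *SRSF7* with 15.0 and 63.9 RPM (4.27-fold, 3.36 to 5.48), *SRSF3* with 39.8 and 145 RPM (3.63-fold, 3.13 to 4.23) and *SRSF4* with 31.3 and 80.4 RPM (2.57-fold, 2.16 to 3.07). Each of these stayed higher on the 3'UTR scale, with log2 ratios of 2.35, 1.62, 1.36 and 1.39. The value of *SRSF4*, whose reads were mainly intronic, rested on 17 and 75 3'UTR reads in parental and *KRT19* KO cytoplasm. At the strongest sites of *SRSF6*, *SRSF3* and *SRSF4*, no cluster was listed in parental cytoplasm. These sites held 48.2%, 57.5% and 19.6% of the reads of their genes in *KRT19* KO cytoplasm, so most of the *SRSF3* reads there lay at 1 site. *SRSF2* was 1.94-fold higher (1.89 to 1.99). *SRSF1* was 1.18-fold higher (1.149 to 1.21), with a log2 ratio that turned from 0.24 to −0.34 on the 3'UTR scale. Its site at 572 nt, not listed in parental cytoplasm, stood at 450 RPM in *KRT19* KO cytoplasm. The totals of the gene were 1705 and 2013 RPM, a narrower gap. *SRSF5*, an SR protein with a pair of recognition motifs, was lower, with 86 reads in parental and 8 in *KRT19* KO cytoplasm (12.0-fold, 5.84 to 28.8). Of the 86, 65 lay at its intron 5 site, where no cluster was listed in *KRT19* KO cytoplasm. *SRSF11* (0.92, 0.84 to 1.01) and *TRA2B* (0.94, 0.86 to 1.03) had intervals that include 1, and *TRA2A* was 1.28-fold lower (1.151 to 1.42). On the 3'UTR scale *TRA2B* stood higher in *KRT19* KO, with 124 of 1756384 3'UTR reads in parental and 540 of 2946853 in *KRT19* KO cytoplasm. The median gene had a log2 ratio of −0.08.

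**Figure D4:**
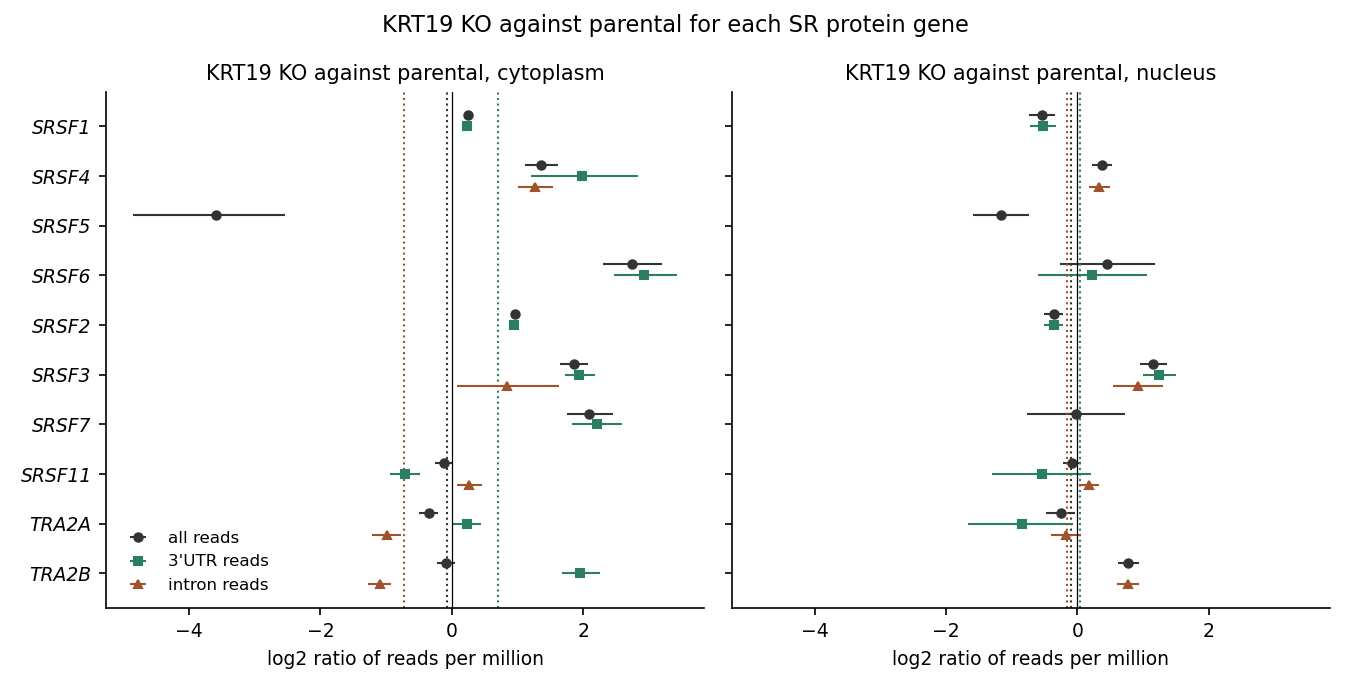
Log2 ratio of RPM, *KRT19* KO against parental, in cytoplasm (left) and nucleus (right) for each SR protein gene, for all reads, 3'UTR reads and intron reads, with 95% intervals of counting error. Dotted lines are the medians of all genes with enough reads for the same kind of read. In cytoplasm the 3'UTR values of *SRSF2*, *SRSF3*, *SRSF4*, *SRSF6*, *SRSF7* and *TRA2B* lie to the right of the 3'UTR median of 0.70, and the all-read value of *SRSF5* lies far left.

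The near-level total of *TRA2B* joined opposite movements of its 3'UTR and introns. Its 3'UTR reads were at 22.3 and 86.9 RPM in parental and *KRT19* KO cytoplasm, 3.89-fold higher (3.19 to 4.77), and its intron reads at 137 and 64.2 RPM, 2.14-fold lower (1.89 to 2.42). *SRSF11* went the other way, with 3'UTR reads 1.64-fold lower (1.40 to 1.92) and intron reads 1.20-fold higher (1.05 to 1.37). *TRA2A* had 3'UTR reads at 1.18-fold (1.01 to 1.37) and intron reads 1.99-fold lower (1.71 to 2.31). Of the 9 SR genes with at least 50 3'UTR reads, 5 were at least 2-fold higher and 0 lower, against 40.9% and 12.2% of 4788 genes. Of the 5 with enough intron reads, *SRSF4* was at least 2-fold higher and *TRA2B* at least 2-fold lower, against 7.3% and 39.3% of 6399 genes. The medians of all genes were 0.70 for 3'UTR reads and −0.74 for intron reads on the log2 scale. The share of 3'UTR reads and of unique reads in the whole library was higher in *KRT19* KO than in parental cytoplasm, and its part in these differences was not tested.

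In the nucleus, the 10 genes together were close to level between genotypes, with a *KRT19* KO to parental ratio of 1.07 (1.02 to 1.11), a log2 ratio of 0.09 that turned to −0.11 on the 3'UTR scale. *SRSF3* was 2.22-fold higher (1.93 to 2.57) in *KRT19* KO nucleus and *SRSF5* was 2.23-fold lower (1.67 to 3.005), and no other SR gene passed 2-fold, where 14.4% and 18.2% of 9371 genes were higher and lower. Neither call held with unique reads, where the log2 ratios were 0.96 for *SRSF3* and 0.39 for *SRSF5*, and without its strongest site that of *SRSF5* was 1.32, higher in *KRT19* KO. *TRA2B* was 1.71-fold higher (1.53 to 1.92) and *SRSF4* 1.29-fold higher (1.16 to 1.44), with intron reads 1.70-fold and 1.26-fold higher. *SRSF1* was 1.45-fold lower (1.27 to 1.66) and *SRSF2* 1.29-fold lower (1.17 to 1.41). *SRSF6* (1.37, 0.83 to 2.27) and *SRSF7* (0.99, 0.59 to 1.66) rested on at most 39 reads a library, and their intervals include 1. By deposited class, 3'UTR reads were at least 2-fold higher in 1 of 6 SR genes, *SRSF3*, and lower in 0. Over all 1793 genes the shares were 26.7% and 25.8%. Intron reads were higher in 0 of 5 and lower in 0, against 12.7% and 18.7% of 7589 genes. On the MANE transcript the *SRSF3* 3'UTR was at 13.1 and 21.9 RPM per kb in parental and *KRT19* KO nucleus, short of 2-fold. Its introns were at 5.08 and 15.0 RPM per kb, past 2-fold.

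Of the 321 sites, 86 lay in the 3'UTR of the MANE transcript, 197 in its introns, 15 in coding sequence, 3 in the 5'UTR and 20 outside it, all of the last on *SRSF11*. Most 3'UTR sites were cytoplasmic, and the largest group of intron sites was nuclear. Of the 3'UTR sites, 54 (62.8%) were listed in cytoplasm alone, 12 (14.0%) in nucleus alone and 20 (23.3%) in both, against 70.3%, 12.2% and 17.4% of 42233 such sites over all genes placed on a MANE transcript. Of the intron sites, 53 (26.9%) were listed in cytoplasm alone, 83 (42.1%) in nucleus alone and 61 (31.0%) in both, against 33.9%, 47.5% and 18.6% of 324955. Intron sites within 50 nt of the next exon numbered 4 of 195 (2.05%, 0.80 to 5.15), against 1.78% of 349509 intron sites of all genes. The median distance was 1532 nt against 5445 nt, without matching for intron length.

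Sites found in all 4 libraries numbered 17 of 321 (5.30%, 3.33 to 8.32), against 1.68% of 592021 sites of all genes. Among sites of at least 100 reads the shares were closer, with 17 of 49 (34.7%) and 27.0% of 23471. *SRSF11* held 4 of the 17, *SRSF1*, *SRSF2*, *TRA2A* and *TRA2B* held 3 each, *SRSF3* held 1, and *SRSF4*, *SRSF5*, *SRSF6* and *SRSF7* held 0. Sites listed in a single library numbered 198 of 321 (61.7%), against 77.4% of all sites. Between the cytoplasmic libraries 56 sites were shared, which was 38.6% of the *KRT19* KO and 44.8% of the parental sites, where 31.3% and 26.3% of the sites of all genes were shared. Between the nuclear libraries 45 were shared, which was 33.8% and 41.3%, against 21.6% and 20.1% over all genes.

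**Figure D5:**
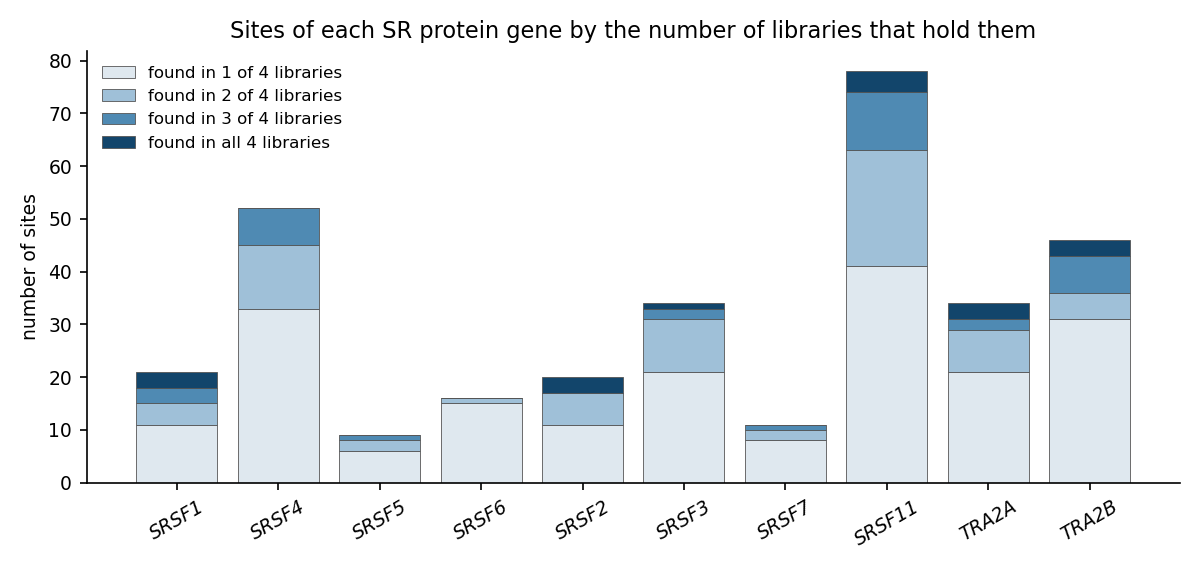
Number of HNRNPK sites on each SR protein gene, by how many of the 4 libraries held a cluster at the site. *SRSF11* has the most sites, and 17 sites in 6 genes are found in all 4 libraries.

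Some sites overlapped exons of transcripts annotated for nonsense-mediated decay. Whether these are the exons through which SR genes are known to limit their own expression was not examined. In 6 genes, 10 sites with 634 reads in all lay in an intron of the MANE transcript but on an exon of a transcript annotated for nonsense-mediated decay. The authors classed 5 of these sites as 3'UTR. The 10 sites were 5.08% of the 197 intron sites of all 10 SR genes (2.78 to 9.09). The share was 0.579% of the 324955 intron sites of all genes, some of which have no such transcript, without matching for intron length. The 1 of the 10 sites listed in all 4 libraries was in intron 3 of *SRSF3*, on an exon of the transcript SRSF3-203. It was named after its values were seen and is shown for that reason.
*SRSF3*, intron 3, chr6:36567773-36567802, plus strand: ctctcagccttctctccaaccttaaccaaa

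It held 23, 105, 34 and 85 reads in parental cytoplasm, *KRT19* KO cytoplasm, parental nucleus and *KRT19* KO nucleus, higher in *KRT19* KO cells in both compartments (4.08-fold in cytoplasm, 2.58 to 6.71). The strongest *SRSF5* site, in intron 5 on an exon of SRSF5-211, held 65, 145 and 22 reads in parental cytoplasm, parental nucleus and *KRT19* KO nucleus and went the other way. These sites held most of the 634 reads. Summed over the gene, *SRSF3* reads moved in the same direction, 3.63-fold higher in cytoplasm (3.13 to 4.23) and 2.22-fold higher in nucleus. The *SRSF5* site held 70.9% of the reads of its gene. A change particular to these sites was not tested. Reads of an alternative exon and of unspliced RNA cannot be told apart at a site of this length.

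The share of reads with a T-to-C change, the mark of the crosslink, was 55.8%, 55.3%, 59.0% and 67.9% for the SR genes in the 4 libraries, against 66.4%, 59.6%, 72.9% and 76.7% of all reads. *SRSF2* had 47.2% (46.2 to 48.2), 52.2%, 49.2% and 52.7%, below the SR genes as a whole in each library. *SRSF1* had 61.4%, 59.5%, 70.6% and 66.0%. Between the strong *SRSF2* sites the share was 41.1% at 865 nt and 59.3% at 435 nt.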

How the data were processed

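HNRNPK PAR-CLIP clusters of 4 libraries were analysed. The authors collapsed identical reads, aligned them to hg19 and called clusters with PARalyzer within PARpipe, after demultiplexing with bcl2fastq 2.20.0 (submitters' processing notes). The labels also name another build, but the sequences of all 515 SR gene clusters equalled GRCh37. The authors deposited raw counts per cluster (all reads, unique reads, reads with a T-to-C change and places of such changes), without normalization, and only clusters of at least 5 reads are listed. A fraction of T-to-C reads, a mode score and a log10 conversion specificity were also deposited and not used.

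Counts were summed per gene name and divided by 1000000 cluster reads of the library (RPM). Intervals at 95% were exact Poisson for counts, exact conditional for ratios and Wilson for shares. A ratio required 50 reads in the 2 libraries together, and 2-fold was the mark for a call. Clusters overlapping by 1 nt on the same strand were joined into sites and placed on GENCODE release 44 (GRCh37) MANE Select transcripts. Distances run from the last coding base before the stop codon. Python 3.11.15, numpy 2.4.6, pandas 2.3.3, scipy 1.17.1 and matplotlib 3.10.9 were used. Sites and ratio intervals were tested on simulated data with 2000 sites and 1000 ratios.

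Samples were grouped by the genotype and fraction in the labels. *KRT19* KO was compared with parental within a fraction and cytoplasm with nucleus within a genotype, with 1 library per condition and no test. The members and gene lists were chosen with earlier results of these data known. Named were the 10 genes, the strongest site of each, the 10 sites with the most reads, sites in all 4 libraries as a count, and the 3 genes with the most reads among 32 others of SR protein function. Alternatives were clusters of at least 10 reads, clusters with at least 2 conversion locations, unique reads, each gene without its strongest site, a total without the top cluster, 3'UTR reads over all 3'UTR reads, and an overlap of 10 nt. The 17 RNA-seq samples were not analysed here.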

Additional observations from a re-analysis of the deposited data

Results flagged for a closer look

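*SRSF1* and *SRSF2* stood in opposite directions between genotypes in the cytoplasm and the nucleus. The log2 ratio of *KRT19* KO to parental RPM was 0.24 in cytoplasm and −0.54 in nucleus for *SRSF1*, and 0.95 and −0.36 for *SRSF2*. With 1 library per condition, the difference between compartments was not tested. For *SRSF1* the cytoplasmic value was −0.34 when 3'UTR reads were taken over all 3'UTR reads, so the directions were then the same. On that scale *SRSF2* kept opposite signs at 0.37 and −0.39. The *SRSF1* total in *KRT19* KO cytoplasm also included 2797 reads (22.4%) at the site at 572 nt, where no cluster was listed in parental cytoplasm.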

How the results depend on the processing

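No paired analysis was possible because each condition had 1 PAR-CLIP library and no test was run. Genes with few reads, above all *SRSF5*, *SRSF6* and *SRSF7*, limit what can be said, and small clusters below 5 reads are not listed. Of 98 single-gene log2 ratios recomputed whose reported value passed 2-fold, 95 kept their sign and 86 still passed 2-fold. The exceptions in sign were *SRSF5* in *KRT19* KO against parental nucleus, at 0.39 with unique reads and 1.32 without its strongest site, and *SRSF6* in *KRT19* KO cytoplasm against nucleus, at −0.38 over 3'UTR reads. The cause was not tested.

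Values are given in the order parental cytoplasm, *KRT19* KO cytoplasm, parental nucleus and *KRT19* KO nucleus. RPM of the 10 genes was 4574, 6842, 1459 and 1600 with clusters of at least 10 reads, 4909, 6782, 2113 and 2397 with at least 2 conversion locations, 4488, 6560, 1428 and 1473 with unique reads, and 1714, 3505, 810.2 and 1010 without the strongest site of each gene. The 3'UTR share was 91.7%, 95.6%, 43.5% and 38.0% with at least 10 reads, 92.2%, 95.5%, 45.5% and 42.3% with at least 2 conversion locations, and 82.2%, 92.2%, 22.6% and 20.9% without the strongest sites. The T-to-C share was 56.8%, 58.0%, 62.7% and 72.6% without the strongest sites, and in the nuclei 56.9% and 66.4% with at least 10 reads and 55.3% and 64.4% with at least 2 conversion locations.

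The log2 ratio of the 10 genes, *KRT19* KO against parental, was in cytoplasm 0.58 with at least 10 reads, 0.47 with at least 2 conversion locations, 0.55 with unique reads, 1.03 without the strongest sites, 0.56 with a total without the top cluster and 0.10 over 3'UTR reads. In the nucleus it was 0.18 with at least 2 conversion locations, 0.32 without the strongest sites and −0.11 over 3'UTR reads. Cytoplasm against nucleus was 1.22, 1.08, 1.74 and 0.20 in parental cells with at least 2 conversion locations, without the strongest sites, without the top cluster in the total and over 3'UTR reads. In *KRT19* KO cells it was 2.10 with at least 10 reads, 1.50 with at least 2 conversion locations, 1.80 without the strongest sites and 0.41 over 3'UTR reads. Genes at least 2-fold lower in *KRT19* KO cytoplasm fell from 1 to 0 with unique reads and without the strongest sites, because *SRSF5* then had fewer than 50 reads; its log2 ratio was −4.05 and −1.56. In the nucleus 0 were higher and 0 lower with unique reads, and 3 higher and 0 lower without the strongest sites. Genes lower in cytoplasm than nucleus of *KRT19* KO cells numbered 1 with unique reads, as *SRSF5*, at −5.78, again had fewer than 50. Sites in all 4 libraries numbered 16, 14 and 17 with at least 10 reads, at least 2 conversion locations and an overlap of 10 nt.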

Other observations

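Among 32 other genes of SR protein function (further SR proteins, their kinases, their nuclear import factor, SR-related proteins and early spliceosome partners), 31, 29, 29 and 29 had clusters in parental cytoplasm, *KRT19* KO cytoplasm, parental nucleus and *KRT19* KO nucleus. Their sum was 3469, 3547, 4341 and 4471 RPM, so that as a group they were higher in the nuclei. The sum of the 10 SR genes was not. Without *SRSF1* and *SRSF2*, the other 8 were also higher in the nuclei, at 578, 764, 844 and 1046 RPM. Of the 32 genes, 30 had enough reads in cytoplasm. Of these, 5 were at least 2-fold higher in *KRT19* KO than in parental cells and 7 were lower, with a median log2 ratio of 0.00. Over all genes with enough reads the shares were 20.6% and 22.4%. In the nucleus 4 of 29 were higher and 5 lower, with a median of 0.11, against 14.4% and 18.2% of all genes with enough reads.

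The 3 with the most reads were *RSRC1*, *SCAF11* and *SRPK1*. *RSRC1*, for an SR-related protein, held 2270, 2971, 2185 and 1771 reads. *SCAF11*, for an SR-related spliceosome factor, held 1466, 3049, 935 and 930 reads, the most of its reads in *KRT19* KO cytoplasm. *SRPK1*, for a kinase that phosphorylates SR proteins, held 1504, 1215, 1713 and 1879 reads. Named after its values were seen, *SRSF10* held 2411, 78, 55 and 9 reads, nearly all in parental cytoplasm.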
